A study of Arabidopsis thaliana with 30 samples.

Results

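Seedlings of the ada2a mutant were compared with seedlings of the gcn5 mutant across all genes of the deposited table. The comparison took 6 of the 30 libraries, 3 of each genotype, and 21868 of the 32548 genes in the table, those reaching 10 in 3 or more of the 30 libraries. Both mutants are Arabidopsis thaliana seedlings labelled as homozygous for a loss of the named gene (ada2a-/- and gcn5-/-), 12 days old, from plates of MS medium at 22 °C with 16 h of light and 8 h of dark, with no treatment. The wild type Col-0 and the mutants ada2b, spc, ing1, sdrl, eaf6, ada2aspc and spcing1 were grown in the same way, with 3 libraries each, and are given below as levels beside the pair. Total RNA of whole seedlings was sequenced as paired ends on an Illumina instrument. The labels name no alleles and do not say whether replicate libraries derive from independently grown plants. A p-value here therefore reflects library-to-library spread, possibly only technical.

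GCN5 is a histone acetyltransferase that acetylates histone H3 at active genes, and it works within multi-subunit complexes. ADA2 proteins are adaptors that bind GCN5 and raise its activity on nucleosomes. Arabidopsis has a single GCN5 and a pair of ADA2 genes. ADA2B belongs to the conserved SAGA complex, and ADA2A to a plant-specific complex that also holds SPC, ING1, SDRL and EAF6. The loss of GCN5 therefore touches both complexes and the loss of ADA2A the plant-specific one, and the direct contrast asks in which genes the mutants differ.

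The values are a normalised signal per gene, and log2 differences are those of log2(value + 1), ada2a minus gcn5, with the SE of a limma fit over all 30 libraries and p-values adjusted by Benjamini and Hochberg over all 21868 genes. The mutated genes were compared first. ADA2A (AT3G07740, chromosome 3, 2469783 to 2473095, minus strand, TAIR10.1) was at 16, 19.9 and 8.32 in ada2a and 586, 501 and 543 in gcn5 (log2 difference -5.19 ± 0.21, adjusted p = 9.2e-18). The level of GCN5 (AT3G54610, chromosome 3, 20213406 to 20217653, plus strand) was 521, 624 and 529 in ada2a and 252, 348 and 313 in gcn5, and in Col-0 at 619 ± 35.9 (SD, n = 3, as for all means below). Its log2 difference was 0.88 ± 0.12, adjusted p = 2.2e-07. Each mutant of the pair was thus lower in its own gene, near 0 for ADA2A in ada2a, while GCN5 transcript remained in gcn5 at a mean of 305. ADA2B did not pass (1289.9, 1472 and 1274 in ada2a and 1364, 1269 and 1249.8 in gcn5, log2 difference 0.05 ± 0.07, adjusted p = 0.569). Pearson's r across genes was 0.9818 to 0.9829 within ada2a, 0.9813 to 0.984 within gcn5 and 0.9381 to 0.9426 between them. Column totals were 39487924 to 40275301 in ada2a, 32623346 to 33352943 in gcn5 and 37686267 to 37796775 in Col-0, so scaling bears on small differences.

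ada2a and gcn5 seedlings differed in a majority of tested genes, with higher genes more numerous among the large differences. Of 21868 genes, 11374 (52.0%) passed at an adjusted p of 0.05, 6255 (28.6%) higher and 5119 (23.4%) lower in ada2a. At least 2-fold differences were found in 3205 genes (14.7%), 2213 higher genes (10.1%) and 992 lower genes (4.54%), and the median log2 difference of all genes was -0.0034. With values divided by column totals that median became -0.28, the split turned to 4016 higher and 10052 lower, and the 2-fold split to 1556 and 1864. A direction of a large group below is therefore given with its counts under that scaling where they turn it. A total of 1032 genes, 747 higher and 285 lower, met the conditions for naming (at least 2-fold, a reference symbol, a mean of at least 100 in the higher group and no overlap of the libraries). In all tested genes the libraries of the groups did not overlap in 12647 cases (57.8%).

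**Figure D1:**
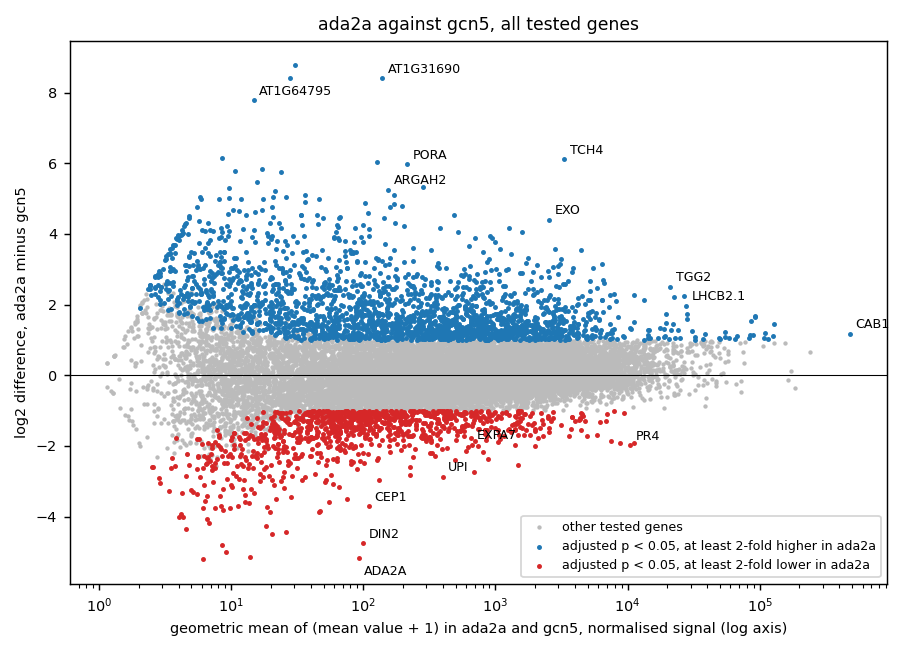
Log2 difference (ada2a minus gcn5, vertical axis) against the geometric mean of the group means plus 1 (horizontal axis, log scale) for the 21868 tested genes. Blue genes are at least 2-fold higher (2213) and red genes at least 2-fold lower (992) in ada2a at an adjusted p below 0.05. TCH4 and PORA stand high in the plot, and ADA2A and DIN2 low.

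The largest differences among named genes were in a cell wall enzyme, a chlorophyll synthesis enzyme and genes of jasmonate and abscisic acid responses. TCH4 (AT5G57560, chromosome 5, 23307006 to 23308680, minus strand), a touch-induced xyloglucan endotransglucosylase, was at 22891, 27980.5 and 32122 in ada2a and 428, 461 and 312 in gcn5. Its lowest ada2a library was far above its highest gcn5 library, and the ratio of the means was 69.1 (log2 difference 6.11 ± 0.26, adjusted p = 1.9e-17). Col-0 was at 593 ± 42.9, close to gcn5. PORA (AT5G54190, chromosome 5, 21990864 to 21992814, minus strand), which reduces protochlorophyllide, was at 1565, 1639 and 1598 in ada2a and 12.7, 24.7 and 45.7 in gcn5. It too did not overlap (log2 difference 5.98 ± 0.23, adjusted p = 3.9e-18), but here Col-0 (1192 ± 236) was close to ada2a. LOX4, a lipoxygenase of jasmonate synthesis, was at 1726, 1579 and 1762 in ada2a and 46.6, 71.7 and 20.8 in gcn5 (log2 difference 5.32 ± 0.33, adjusted p = 5.0e-14). ARGAH2, an arginase, was at 999.9, 991 and 861 in ada2a and 27.1, 20.4 and 24.7 in gcn5 (log2 difference 5.25 ± 0.38, adjusted p = 1.4e-12), with Col-0 at 1226 ± 244. The other 8 of the 12 largest were SLAH1, a homologue of the guard cell anion channel SLAC1, JAZ7, a jasmonate repressor, RD29B, an abscisic acid response gene, the wall genes EXLB1 and XTH25, PHI-1 of the EXORDIUM family, the seed dormancy gene DOG1 and the plastid translocator gene PPT2. Their log2 differences ran from 4.48 ± 0.39 for PPT2 to 5.10 ± 0.33 for SLAH1.

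Upstream sequences are shown for genes of the main groups described below (TCH4 and EXO of the cell wall and touch group, PORA of chlorophyll synthesis, EXPA7 of root hairs). Each is the 250 bases before the annotated start of the gene in RefSeq TAIR10.1, written 5′ to 3′ on the strand of the gene. Capitals mark matches, on either strand, of any of the 8 motifs searched: CGCGTT, the W-box TTGAC, the GCC-box GCCGCC, the G-box CACGTG, the evening element AAAATATCT, the I-box GATAAG, the DRE core CCGAC and the phosphate starvation motif P1BS (GNATATNC). None of the 8 contains another, and no matches shared bases in these windows.
TCH4 (chr5:23308681-23308930, minus strand): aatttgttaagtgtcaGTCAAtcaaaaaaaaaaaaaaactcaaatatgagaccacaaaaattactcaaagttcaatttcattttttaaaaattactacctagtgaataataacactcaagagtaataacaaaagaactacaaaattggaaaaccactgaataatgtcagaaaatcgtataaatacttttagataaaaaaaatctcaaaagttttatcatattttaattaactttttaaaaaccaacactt
EXO (chr4:5739969-5740218, plus strand): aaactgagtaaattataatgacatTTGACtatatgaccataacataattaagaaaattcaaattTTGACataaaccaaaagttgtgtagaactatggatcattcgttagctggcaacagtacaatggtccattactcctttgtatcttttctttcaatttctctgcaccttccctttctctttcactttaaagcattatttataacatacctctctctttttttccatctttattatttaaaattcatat
PORA (chr5:21992815-21993064, minus strand): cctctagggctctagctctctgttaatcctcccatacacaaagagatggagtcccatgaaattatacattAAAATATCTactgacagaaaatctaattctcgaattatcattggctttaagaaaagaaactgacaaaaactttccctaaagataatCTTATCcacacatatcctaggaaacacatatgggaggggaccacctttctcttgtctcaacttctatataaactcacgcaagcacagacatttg
EXPA7 (chr1:4276255-4276504, plus strand): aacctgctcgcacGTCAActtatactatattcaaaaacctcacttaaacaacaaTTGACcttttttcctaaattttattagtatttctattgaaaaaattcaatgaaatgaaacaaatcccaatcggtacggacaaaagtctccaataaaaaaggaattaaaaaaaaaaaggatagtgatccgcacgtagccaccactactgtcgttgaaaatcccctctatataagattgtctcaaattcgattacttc

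The TCH4 window held 1 W-box, the EXO and EXPA7 windows 2 each, and the PORA window an evening element and an I-box. A W-box stood in 45.1% of the 21867 upstream windows of tested genes, an evening element in 2.45% and an I-box in 12.4%. In the windows of the 2213 genes at least 2-fold higher in ada2a, CGCGTT stood in 4.02% (2.79% of all), the evening element in 3.62% and the I-box in 15.7%. In those of the 992 lower genes, P1BS stood in 8.67% (5.5% of all) and the W-box in 49.7%. The evening element stood in 1.71% of the lower windows, the W-box in 46.5% of the higher ones, and the G-box in 8.04% of higher, 6.45% of lower and 7.18% of all. By list, the I-box and the G-box each stood in 13 of 57 photosynthesis genes (22.8%), P1BS in 8 of 34 phosphate starvation genes (23.5%), the evening element in 7 of 17 evening clock genes (41.2%) and the DRE core in 8 of 21 root hair genes (38.1%, against 12.6% of all). These are matches of letters, with no test of binding.

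Transcripts of the photosynthetic apparatus were higher in ada2a almost throughout. Of 57 tested genes of the light reactions, 55 were higher and 0 lower, with a median log2 difference of 0.96, against 28.6% higher and a median of -0.0034 over all genes. All 15 Calvin cycle genes were higher (median 0.69), and of 21 chlorophyll genes 19 were higher and 1 lower (median 0.63). With values divided by column totals 54, 13 and 15 of them were higher. LHCB2.1, an antenna protein of photosystem II, was at 55094, 61086 and 48516 in ada2a and 14074, 15776 and 12176 in gcn5 (log2 difference 1.97 ± 0.11, adjusted p = 8.8e-15). LHCB3 was at 163164, 170338 and 156493 in ada2a and 52418, 53089 and 50346 in gcn5 (log2 difference 1.65 ± 0.09, adjusted p = 4.3e-15). All ada2a libraries of both genes lay above all gcn5 libraries, and the Col-0 means were 86424 and 172970.0, at or above ada2a. The antenna genes CAB2 and LHCB2.3 had log2 differences of 2.25 ± 0.13 and 2.24 ± 0.10, and near-identical copies may share their reads. PSB28 and PSBP-2 of photosystem II did not pass (adjusted p = 0.085 and 0.167).

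Among carbon fixation genes the Rubisco activase gene RCA was at 108557, 109542 and 102485 in ada2a and 50843, 56544 and 60760.0 in gcn5 (log2 difference 0.93 ± 0.10, adjusted p = 1.1e-08), and the aldolase gene FBA1 had a log2 difference of 0.84 ± 0.09. In chlorophyll synthesis HEMA1, which starts the pathway from glutamyl-tRNA, was at 10077, 9880.1 and 11571 in ada2a and 3443, 3355 and 3625 in gcn5 (log2 difference 1.59 ± 0.09, adjusted p = 7.5e-15), with Col-0 between the groups at 6221 ± 419. The chlorophyllase gene CLH1 was the member lower in ada2a, at 746, 895 and 696 in ada2a and 1102, 1247 and 1077 in gcn5 (log2 difference -0.56 ± 0.17, adjusted p = 0.00837). In the summed signal, the 94 genes of these lists held 13.9% to 14.6% of the column total in ada2a, 8.35% to 8.71% in gcn5 and 15.7% to 15.9% in Col-0. Their sums differed by 2872499 between the group means, which is 41.1% of the difference of 6992179 between the mean column totals. Against Col-0, whose libraries serve both contrasts, 2 light reaction genes were higher and 5 lower in ada2a, and 0 higher and 54 lower in gcn5. Over all genes these contrasts called 29.7% in ada2a (15.1% higher, 14.5% lower) and 42.7% in gcn5 (18.2% higher, 24.5% lower).

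In whole seedlings fewer cells of a type and less RNA per cell cannot be told apart, and shoot and root were not separated. Of 10 shoot marker genes 6 were higher and 3 lower in ada2a, and their summed level was 1190644.5 to 1271134.7 in ada2a and 583621.3 to 645852.5 in gcn5. Most of that sum came from the photosynthesis genes LHCB1.3 (means of 723072 in ada2a and 319094 in gcn5) and RBCS1A (302628 and 192548). The markers of leaf identity AS1, YAB1 and KAN1 had means of 1657, 812 and 547 in ada2a and 2360.4, 1013 and 838 in gcn5, so they did not move with the antenna genes. GUN4, also on that list, was near 0 in both (10.6 and 4.46) and in Col-0 as well (3.44). Of 14 root markers 1 was higher and 6 lower in ada2a, summing to 6923.6 to 8253.5 in ada2a and 8495.2 to 10107.2 in gcn5. Of 4 tested markers of dividing cells all were lower in ada2a, with sums of 1377.2 to 1471.9 against 2218.9 to 2314.5, and WUS and CLV3 were listed at 0 in both. Of 6 stomatal markers 2 were higher and 1 lower, and the 4 floral markers summed to 246.4 to 258.7 in ada2a and 78.1 to 133.0 in gcn5, of which SEP3 had means of 242 and 90.7. The part of organ proportions in the results was not tested.

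**Figure D2:**
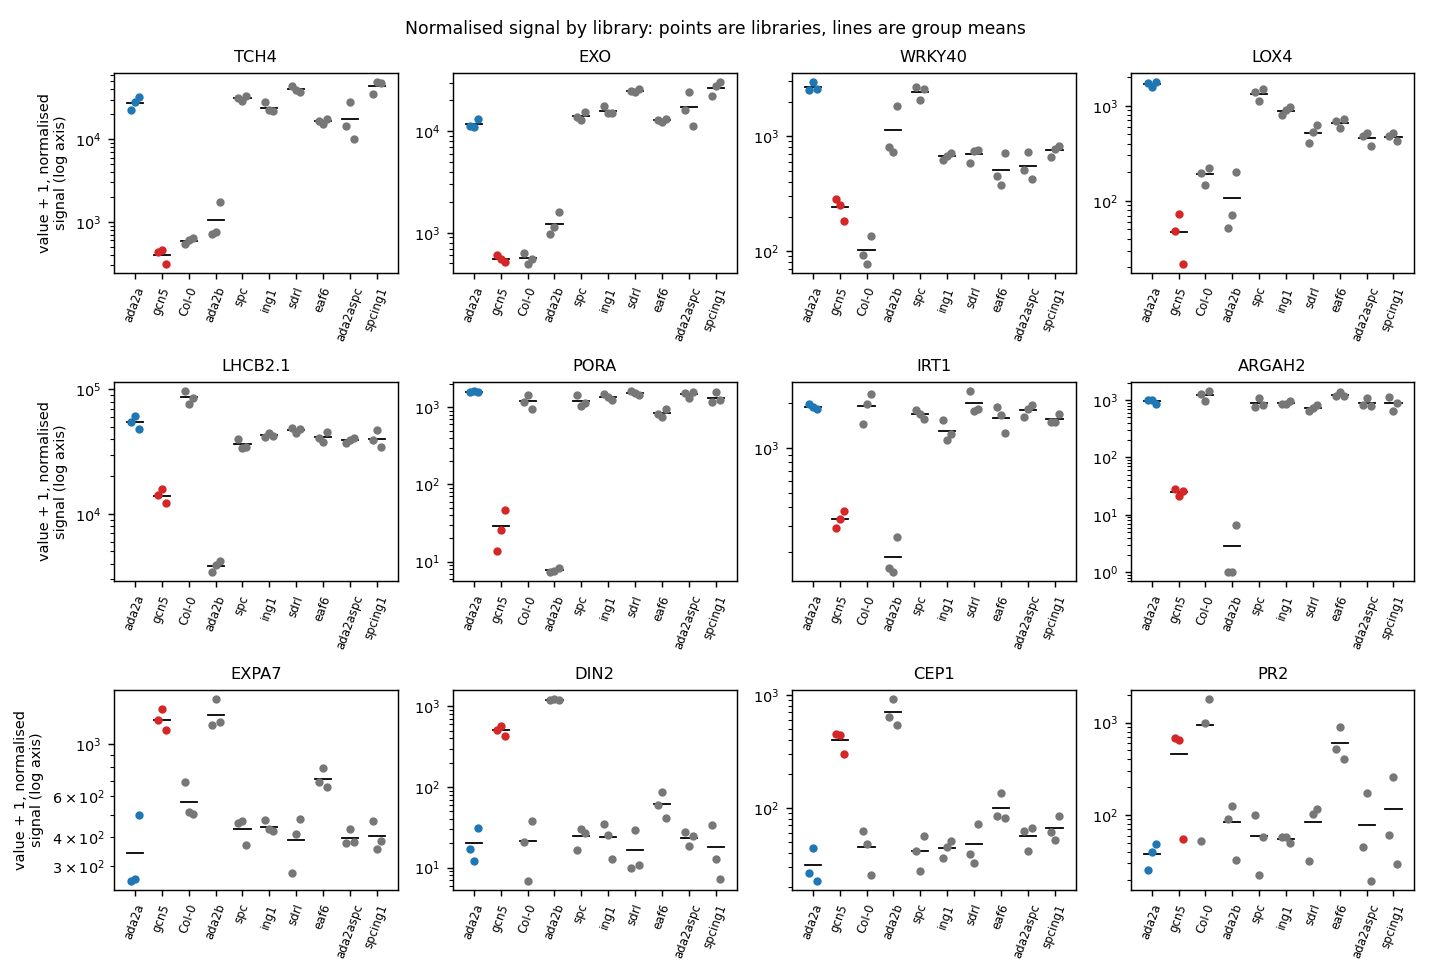
Normalised signal plus 1 (vertical axes, log scale) in each library of 12 genes across the 10 genotypes. Points are libraries, lines are means of 3, ada2a is blue and gcn5 red. TCH4 and EXO are high in ada2a and near Col-0 in gcn5, LHCB2.1, PORA, IRT1 and ARGAH2 are low in gcn5 and ada2b, and DIN2, CEP1 and EXPA7 are high in gcn5 and ada2b.

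Genes of touch and calcium signalling and of the EXORDIUM family were mostly higher in ada2a, those of expansins more often lower, and for TCH4, EXO and CML38 gcn5 rather than ada2a lay near Col-0. Of 34 touch and calcium genes 18 were higher and 2 lower in ada2a, with a median log2 difference of 0.45 (13 higher and 8 lower with values divided by column totals). The shares over all genes, as deposited, were 28.6% higher and 23.4% lower. CML38, a calmodulin-like protein, was at 1816, 2059 and 2454 in ada2a and 141, 158 and 86.5 in gcn5 (log2 difference 4.06 ± 0.17, adjusted p = 9.6e-18), and Col-0 at 178 ± 23.9. TCH3, a further calmodulin-like protein induced by touch, was at 8216, 8899.9 and 10414 in ada2a and 1009, 1063 and 1041 in gcn5 (log2 difference 3.14 ± 0.13, adjusted p = 1.7e-17). Neither gene overlapped between the groups. The cyclic nucleotide-gated channel gene CNGC9 was lower in ada2a, at 479, 550.3 and 528 in ada2a and 754, 894 and 773 in gcn5 (log2 difference -0.63 ± 0.10, adjusted p = 2.6e-06). Against Col-0 the list had 16 higher and 3 lower in ada2a, and 10 higher and 7 lower in gcn5. For all genes these contrasts had 15.1% higher and 14.5% lower in ada2a, and 18.2% higher and 24.5% lower in gcn5.

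The EXORDIUM family, secreted proteins of cell expansion, had 5 of 7 tested members higher in ada2a and 0 lower (5 higher and 1 lower with values divided by column totals). Beside this and the wall families that follow, 28.6% of all genes were higher and 23.4% lower as deposited. EXO (AT4G08950, chromosome 4, 5740219 to 5741591, plus strand) was at 11218, 10971 and 13181 in ada2a and 609, 547 and 509.8 in gcn5 (log2 difference 4.40 ± 0.17, adjusted p = 3.9e-18), with Col-0 at 561 ± 66.6. EXL5 was at 5901, 5819 and 5811 in ada2a and 786, 977 and 775 in gcn5, and its log2 difference was 2.79 ± 0.14. EXL2 and EXL4 overlapped between the groups and did not pass (adjusted p = 0.445 and 0.742). Of 30 xyloglucan endotransglucosylases 14 were higher and 5 lower in ada2a, with a median log2 difference of 0.25 (13 higher and 10 lower with values divided by column totals, where the median was -0.02). XTH16 was at 1097, 1220.0 and 1304 in ada2a and 142, 152 and 148 in gcn5 (log2 difference 3.02 ± 0.13, adjusted p = 3.2e-17), while XTH14 was lower in ada2a, at 1781, 1819 and 3141 in ada2a and 6643, 6352 and 5635 in gcn5 (log2 difference -1.51 ± 0.16, adjusted p = 3.8e-09). Of 25 expansins 5 were higher and 13 lower in ada2a, with a median log2 difference of -0.44. EXLA1 was higher, at 2342, 2383 and 3098 in ada2a and 365, 352 and 268 in gcn5 (log2 difference 2.99 ± 0.16, adjusted p = 2.3e-15), and EXPA1 lower, at 5432, 5361 and 5971 in ada2a and 11639, 11901 and 10427 in gcn5 (log2 difference -1.02 ± 0.10, adjusted p = 6.3e-10). The wall families thus held members that differed in opposite directions.

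Transcription factors of the ERF and DREB family were more often higher than lower in ada2a. Of 47 tested members 21 were higher and 5 lower in ada2a, with a median log2 difference of 0.55. DREB26 was at 2522, 2587 and 2953 in ada2a and 229.8, 167 and 155 in gcn5 (log2 difference 3.88 ± 0.20, adjusted p = 1.0e-15), and ERF6, which acts in stress and growth restraint, at 3213, 3704 and 3979.7 in ada2a and 367, 282 and 174 in gcn5 (log2 difference 3.78 ± 0.22, adjusted p = 1.4e-14). Both were low in Col-0, at 113 ± 14.6 and 151 ± 34.9. CBF3, an activator of cold response genes, went the other way, at 64.4, 145 and 111 in ada2a and 581, 565 and 412 in gcn5 (log2 difference -2.33 ± 0.36, adjusted p = 4.0e-06), with Col-0 at 499 ± 12.3. Of 64 WRKY genes 20 were higher and 15 lower in ada2a, with a median log2 difference of -0.02 (13 higher and 26 lower with values divided by column totals). As deposited, these shares were near the 28.6% and 23.4% over all genes. WRKY33, a regulator of camalexin synthesis and defence, was at 11037, 10518 and 11208 in ada2a and 1531, 1422 and 1095 in gcn5 (log2 difference 3.03 ± 0.20, adjusted p = 2.2e-13). WRKY40 was at 2511, 2938 and 2564 in ada2a and 285, 249.9 and 183 in gcn5 (log2 difference 3.50 ± 0.25, adjusted p = 1.6e-12). WRKY56 was lower in ada2a (log2 difference -1.89 ± 0.44, adjusted p = 6.7e-04). Of 8 stress zinc finger genes 4 were higher and 0 lower (3 higher and 2 lower with values divided by column totals). The higher ones included ZAT10 (1582, 1852 and 1667 in ada2a and 447, 529.6 and 288 in gcn5, log2 difference 2.05 ± 0.24, adjusted p = 2.3e-08). ZAT12 did not pass, at 407, 561 and 472 in ada2a and 399, 329.7 and 254 in gcn5 (adjusted p = 0.0736), with a Col-0 mean of 78.5.

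Genes of defence and jasmonate were more often higher than lower in ada2a, beside 28.6% higher and 23.4% lower over all genes. Of 28 salicylic acid and immunity genes 15 were higher and 5 lower in ada2a, with a median log2 difference of 0.41. RBOHD, the NADPH oxidase of the oxidative burst, was at 8407, 7212 and 8071 in ada2a and 1347, 1453 and 1171 in gcn5 (log2 difference 2.58 ± 0.13, adjusted p = 8.8e-16). CBP60G, an activator of salicylic acid synthesis, was at 894, 957 and 896 in ada2a and 144, 169 and 132 in gcn5 (log2 difference 2.63 ± 0.16, adjusted p = 4.5e-14). PR2, a glucanase, was at 24.7, 38.8 and 47.3 in ada2a and 678, 641 and 54.4 in gcn5, where gcn5 library 3 stood far below the other two, and in Col-0 at 939 ± 865. Its log2 difference was -2.98 ± 0.98, adjusted p = 0.0121, and the call was lost without gcn5 library 1 (adjusted p = 0.075) or 2 (adjusted p = 0.0705). PR1 overlapped between the groups and did not pass (0.433, 13.9 and 29.7 in ada2a and 36.5, 56.1 and 0.363 in gcn5). Of 32 jasmonate genes 18 were higher and 3 lower in ada2a, with a median log2 difference of 0.36 (14 higher and 11 lower with values divided by column totals). LOX3 was at 1018, 936 and 1333 in ada2a and 121, 151 and 91 in gcn5 (log2 difference 3.18 ± 0.20, adjusted p = 1.2e-13), and the repressor gene JAZ9 at 1947, 2180.2 and 2351 in ada2a and 412, 379 and 395 in gcn5 (log2 difference 2.44 ± 0.17, adjusted p = 1.0e-12). The defensin gene PDF1.2, which has near-identical copies, was lower in ada2a, at 27.3, 31.9 and 8.39 in ada2a and 170.5, 209 and 173 in gcn5 (log2 difference -3.16 ± 1.04, adjusted p = 0.0122), a call lost without ada2a library 3 (adjusted p = 0.0657). Of 25 ethylene genes 11 were higher and 3 lower in ada2a, with a median log2 difference of 0.31 (9 higher and 8 lower with values divided by column totals). ACS6, a synthase of the ethylene precursor, was at 4327, 4575 and 3952 in ada2a and 666, 605 and 484 in gcn5 (log2 difference 2.88 ± 0.20, adjusted p = 5.7e-13). ACS7 was lower, at 22.7, 18.9 and 12.4 in ada2a and 63.6, 56.8 and 39.5 in gcn5 (log2 difference -1.53 ± 0.45, adjusted p = 0.00519). Of 16 hypoxia genes 14 were higher and 0 lower in ada2a, with a median log2 difference of 0.57 (9 higher and 1 lower with values divided by column totals). LBD41 was at 2321, 2462 and 2411 in ada2a and 1139.5, 905 and 1071 in gcn5 (log2 difference 1.21 ± 0.11, adjusted p = 8.8e-11), and the alcohol dehydrogenase gene ADH1 overlapped and did not pass (9401, 10006 and 9074 in ada2a and 10139, 8960.0 and 7676 in gcn5, adjusted p = 0.447).

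**Figure D3:**
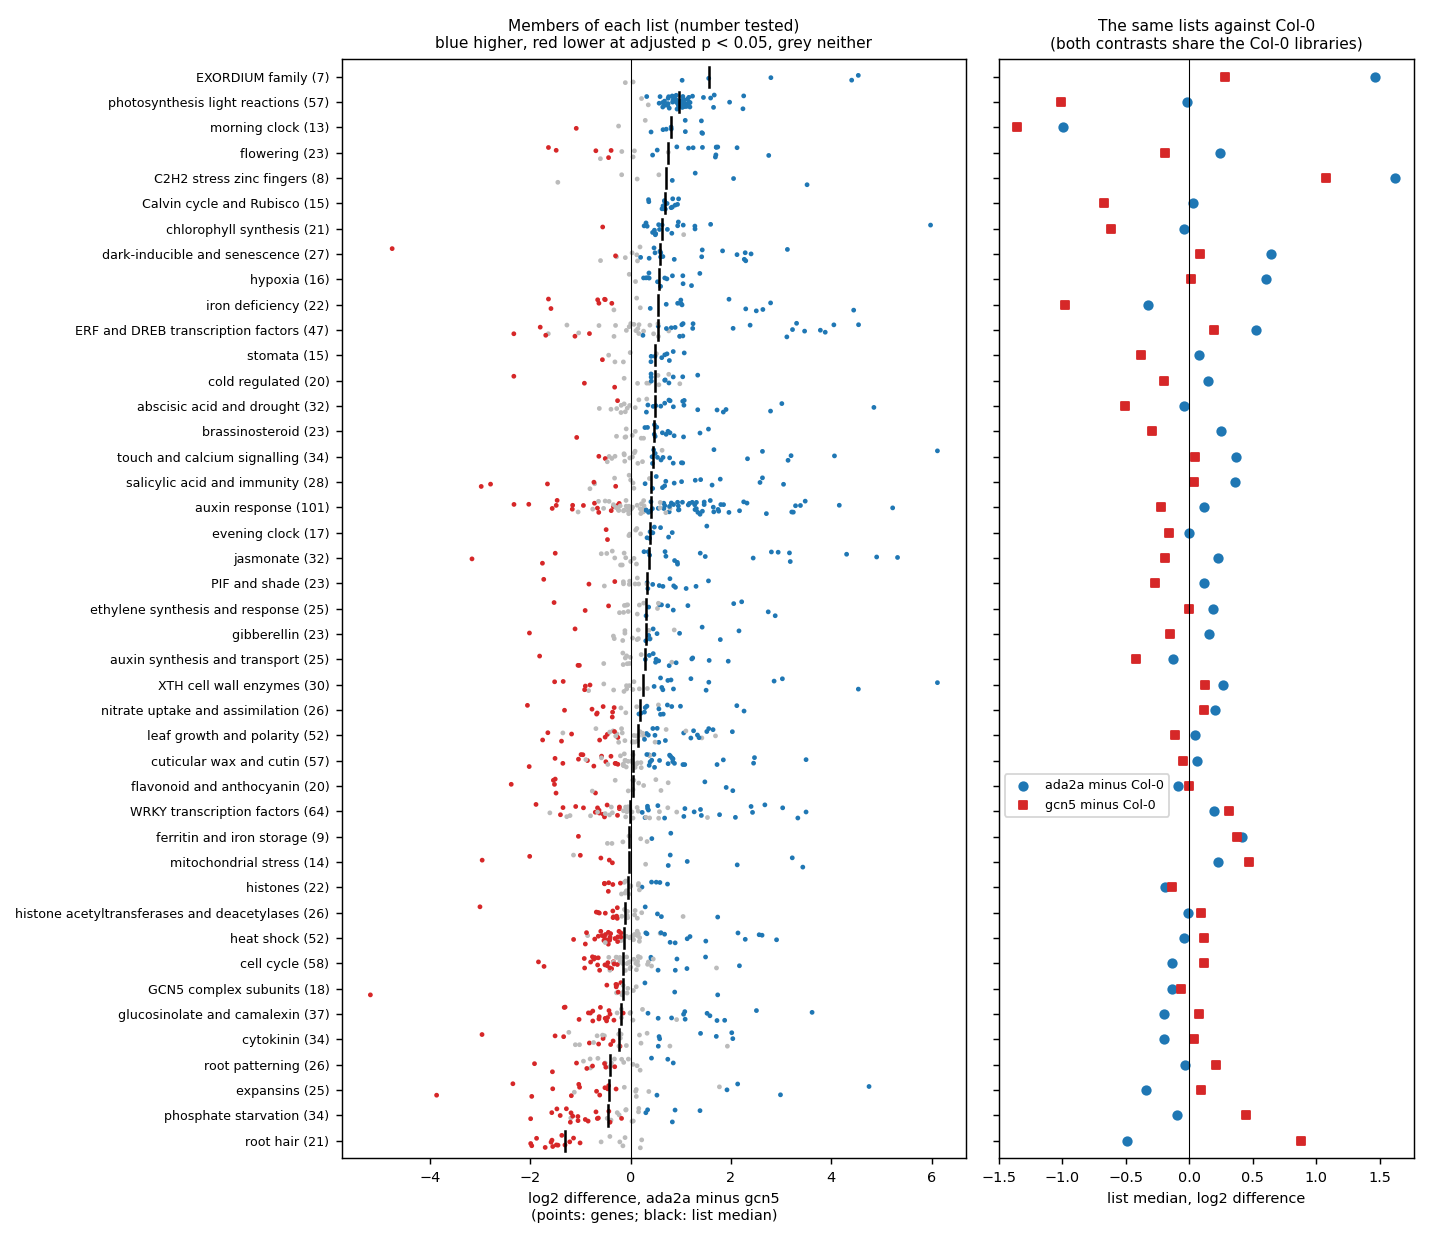
Left, log2 difference (ada2a minus gcn5) of every tested member of 43 gene lists, with the list median in black and the number tested in brackets; blue and red members passed as higher and lower, grey ones did not. Right, list medians of ada2a (circles) and gcn5 (squares) against Col-0, which share the Col-0 libraries. Photosynthesis stands at 0.96 and root hair at -1.31 on the left.

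Genes of auxin, brassinosteroid and gibberellin were more often higher than lower in ada2a, and those of cytokinin were mixed. Of 101 auxin response genes 50 were higher and 15 lower in ada2a, with a median log2 difference of 0.40. The SAUR-type gene AT1G72430 was at 3188, 3332 and 3613 in ada2a and 969, 866 and 777 in gcn5 (log2 difference 1.96 ± 0.12, adjusted p = 2.4e-14), and the repressor gene IAA2 at 4768, 5015 and 5027 in ada2a and 2665, 2523 and 2556 in gcn5 (log2 difference 0.94 ± 0.06, adjusted p = 3.5e-13). Of 25 genes of auxin synthesis and transport 12 were higher and 3 lower in ada2a, with a median log2 difference of 0.29. The influx carrier gene LAX1 was at 2863, 3099 and 3030.4 in ada2a and 734, 812 and 789 in gcn5 (log2 difference 1.94 ± 0.10, adjusted p = 1.8e-15), with Col-0 at 2129 ± 150.0. The efflux carrier gene PIN3 had a log2 difference of 0.77 ± 0.08. Of 23 brassinosteroid genes 14 were higher and 1 lower in ada2a, with a median log2 difference of 0.47, with BEE3 at 1612, 1489.6 and 1543 in ada2a and 612, 568 and 600.0 in gcn5 (log2 difference 1.38 ± 0.07, adjusted p = 1.4e-15). The transcription factor gene BES1 of that pathway had a log2 difference of 0.87 ± 0.06, and PRE1 was lower in ada2a at -1.08 ± 0.30. Of 23 gibberellin genes 9 were higher and 2 lower in ada2a, with a median log2 difference of 0.30 (5 higher and 5 lower with values divided by column totals). RGA1, a DELLA repressor, was at 5387, 5378 and 5253 in ada2a and 2729.8, 2781 and 2638 in gcn5 (log2 difference 0.97 ± 0.07, adjusted p = 1.4e-12), and the receptor gene GID1B lower, at 328, 387 and 406 in ada2a and 833, 847 and 736 in gcn5 (log2 difference -1.11 ± 0.11, adjusted p = 7.0e-10). Of 34 cytokinin genes 7 were higher and 9 lower in ada2a, with a median log2 difference of -0.23 (7 higher and 15 lower with values divided by column totals). Over all genes, as deposited, 28.6% were higher and 23.4% lower. The activating enzyme gene LOG1 and the oxidase gene CKX4 were higher, with log2 differences of 2.04 ± 0.11 and 1.39 ± 0.15, and LOG2 was lower, at 2.77, 15.9 and 19.5 in ada2a and 64.9, 108 and 85.4 in gcn5 (log2 difference -2.96 ± 0.63, adjusted p = 2.6e-04).

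Abscisic acid and drought genes were mostly higher in ada2a, beside 28.6% higher and 23.4% lower over all genes. Of 32 genes 19 were higher and 1 lower in ada2a, with a median log2 difference of 0.48 (13 higher and 9 lower with values divided by column totals). Against Col-0 the list had 6 higher and 7 lower in ada2a, and 1 higher and 19 lower in gcn5. For all genes these contrasts had 15.1% higher and 14.5% lower in ada2a, and 18.2% higher and 24.5% lower in gcn5. RD29B was at 889, 1071 and 775 in ada2a and 32.7, 27.5 and 31.3 in gcn5 (log2 difference 4.85 ± 0.45, adjusted p = 2.4e-10), with Col-0 at 628 ± 118. CYP707A3, which breaks down abscisic acid, was at 1559, 1763 and 1549 in ada2a and 258, 183 and 169 in gcn5 (log2 difference 3.01 ± 0.24, adjusted p = 7.8e-12), and this gene was lower in Col-0 than in either mutant, at 85.8 ± 17.4. The phosphatase gene HAB1 was the member lower in ada2a (1448, 1403 and 1411 in ada2a and 1626, 1677 and 1809 in gcn5, log2 difference -0.26 ± 0.08, adjusted p = 0.0105), a call lost without gcn5 library 3 (adjusted p = 0.0579). Of 20 cold genes 9 were higher and 3 lower in ada2a, with a median log2 difference of 0.48 (5 higher and 4 lower with values divided by column totals). ERD10 was at 15244, 17353 and 17472 in ada2a and 6222, 7655 and 6012 in gcn5 (log2 difference 1.34 ± 0.11, adjusted p = 2.0e-11), and LTI30, a dehydrin like it, lower in ada2a, at 768, 908 and 1091 in ada2a and 1777, 1904 and 1531 in gcn5 (log2 difference -0.92 ± 0.11, adjusted p = 7.1e-08).

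After ADA2A itself, the largest lower difference among named genes was in DIN2. DIN2 (AT3G60140, chromosome 3, 22216540 to 22220824, plus strand), a beta-glucosidase induced in the dark, was at 16.2, 10.9 and 29.8 in ada2a and 503, 574 and 427 in gcn5 (log2 difference -4.75 ± 0.53, adjusted p = 9.7e-09). CEP1, a cysteine endopeptidase of dying cells, was at 25.5, 42.8 and 21.7 in ada2a and 445, 444 and 296 in gcn5 (log2 difference -3.71 ± 0.34, adjusted p = 2.9e-10). Both were low in Col-0 too, at 20.7 ± 15.3 and 44.3 ± 18.6. UPI, a protease inhibitor, was at 122, 153 and 165 in ada2a and 1242, 981 and 1009 in gcn5 (log2 difference -2.87 ± 0.19, adjusted p = 1.4e-13). The wall-associated kinase gene WAK3 was at 4.6, 2.98 and 6.16 in ada2a and 139, 127 and 88.5 in gcn5 (log2 difference -4.43 ± 0.84, adjusted p = 5.5e-05). Its Col-0 libraries had a mean of 68.5 ± 54.8, ran from 7.73 to 114 and overlapped those of gcn5. The other members of the 12, besides PDF1.2 and PR2 above, were GSTU4, a glutathione transferase, AOX1C, an alternative oxidase, FRK1, a receptor kinase gene of flagellin responses, MC2, a metacaspase, and ST4B, a sulfotransferase. Their log2 differences ran from -3.51 ± 0.50 for GSTU4 to -2.61 ± 0.30 for ST4B.

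The direction of DIN2 was not that of most dark-inducible genes. Of 27 dark-inducible and senescence genes 18 were higher and 2 lower in ada2a, with a median log2 difference of 0.58 (28.6% of all genes were higher and 23.4% lower). DIN10 was at 24885, 23071 and 25182 in ada2a and 4825, 5569.6 and 4844 in gcn5 (log2 difference 2.26 ± 0.13, adjusted p = 1.1e-14), and DIN1 at 5790.4, 6121 and 6507 in ada2a and 671, 691 and 748 in gcn5 (log2 difference 3.12 ± 0.20, adjusted p = 1.1e-13). Both had all ada2a libraries above all gcn5 libraries, the opposite order to DIN2. TPS8, of the trehalose phosphate synthase family, had a log2 difference of 2.12 ± 0.15.

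Root hair genes that passed were all lower in ada2a. Of 21 tested members 0 were higher and 14 lower, each of these at least 2-fold, with a median log2 difference of -1.31 (23.4% of all genes were lower). EXPA7 (AT1G12560, chromosome 1, 4276505 to 4277969, plus strand), an expansin of root hairs, was at 259.5, 263 and 498 in ada2a and 1266, 1417 and 1149.9 in gcn5 (log2 difference -1.97 ± 0.19, adjusted p = 6.1e-10), with Col-0 at 568 ± 107. LRX1, a wall protein of root hairs, was at 347, 248 and 509 in ada2a and 1183, 1636 and 1122 in gcn5 (log2 difference -1.87 ± 0.22, adjusted p = 2.4e-08). RHS19, a root hair-specific peroxidase, was at 1141, 1166 and 1999 in ada2a and 3739.6, 3703 and 3334 in gcn5 (log2 difference -1.37 ± 0.16, adjusted p = 2.5e-08). In all of these ada2a library 3 was the highest of its group and still below every gcn5 library. RHD6, which sets root hair fate, overlapped and did not pass (95.6, 73.6 and 142 in ada2a and 155, 156 and 142 in gcn5, adjusted p = 0.0727). Against Col-0 the list had 1 higher and 7 lower in ada2a, and 14 higher and 1 lower in gcn5. For all genes these contrasts had 15.1% higher and 14.5% lower in ada2a, and 18.2% higher and 24.5% lower in gcn5. Of 26 root patterning genes 3 were higher and 8 lower in ada2a, with a median log2 difference of -0.41. APL, a phloem regulator, was higher (log2 difference 0.85 ± 0.13, adjusted p = 4.1e-06) and LHW, a vascular regulator, lower (log2 difference -0.32 ± 0.07, adjusted p = 4.9e-04).

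Phosphate starvation genes were more often lower than higher in ada2a, and iron and nitrate genes went both ways. Among all tested genes 28.6% were higher and 23.4% lower, as deposited. Of 34 phosphate starvation genes 5 were higher and 18 lower in ada2a, with a median log2 difference of -0.45. The phosphate transporter gene PHT1;4 was at 825, 829.9 and 1075 in ada2a and 2965, 2928 and 1807 in gcn5 (log2 difference -1.47 ± 0.19, adjusted p = 2.2e-07), and the exporter gene PHO1 went the other way, at 3449, 3071 and 3970.3 in ada2a and 2013, 2064 and 1797 in gcn5 (log2 difference 0.83 ± 0.10, adjusted p = 2.4e-08). Of 22 iron deficiency genes 12 were higher and 7 lower in ada2a, with a median log2 difference of 0.55 (10 higher and 8 lower with values divided by column totals). IRT1, the iron importer of the root epidermis, was at 1959, 1879 and 1816 in ada2a and 288, 334 and 377 in gcn5 (log2 difference 2.50 ± 0.17, adjusted p = 4.9e-13), with Col-0 at 1899.7 ± 426. NAS2, a nicotianamine synthase, was at 262, 263 and 306 in ada2a and 11.1, 5.19 and 26.5 in gcn5 (log2 difference 4.44 ± 0.37, adjusted p = 2.6e-11), and the ferric reductase gene FRO2 had a log2 difference of 2.29 ± 0.20. The adjacent paralog IRT2 was lower in ada2a, at 115, 95.5 and 148 in ada2a and 398, 379 and 331 in gcn5 (log2 difference -1.64 ± 0.26, adjusted p = 4.6e-06). IRT1 and IRT2 thus had opposite directions in libraries that did not overlap. Of 9 iron storage genes 2 were higher and 1 lower (1 higher and 3 lower with values divided by column totals). Of 26 nitrate genes 13 were higher and 9 lower in ada2a, with a median log2 difference of 0.18 (7 higher and 11 lower with values divided by column totals), with BT2, a nitrogen-responsive scaffold protein, at 27316, 28719.8 and 26619.6 in ada2a and 6302, 5525 and 7355 in gcn5 (log2 difference 2.12 ± 0.15, adjusted p = 9.3e-13).

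Clock, light and flowering genes were, as deposited, more often higher than lower in ada2a, beside 28.6% higher and 23.4% lower over all genes. Of 13 morning clock genes 10 were higher and 1 lower in ada2a, with a median log2 difference of 0.81, and of 17 evening genes 10 were higher and 2 lower in ada2a, with a median log2 difference of 0.38 (6 higher and 5 lower with values divided by column totals). CCA1, a morning repressor, was at 233, 222 and 216 in ada2a and 79.2, 82.1 and 89.8 in gcn5 (log2 difference 1.41 ± 0.22, adjusted p = 4.5e-06), and both mutants were below Col-0 at 1462 ± 497. RVE2 was lower in ada2a, at 1205, 1235 and 943 in ada2a and 2209, 2251 and 2692 in gcn5 (log2 difference -1.08 ± 0.13, adjusted p = 6.9e-08). GI, an evening gene, overlapped and did not pass (7939, 6622 and 7699 in ada2a and 5826, 7138 and 6443 in gcn5, adjusted p = 0.0949). The hour of harvest is not in the labels and was not tested. Of 23 PIF and shade genes 11 were higher and 3 lower in ada2a, with a median log2 difference of 0.33 (7 higher and 7 lower with values divided by column totals). PIF4, a growth-promoting light-signalling factor, was at 8790.3, 8200.4 and 7783 in ada2a and 3813, 3854 and 3825 in gcn5 (log2 difference 1.11 ± 0.08, adjusted p = 5.2e-13), PIF5 was at 4745, 4698 and 4882 in ada2a and 1984, 2161 and 1687 in gcn5, and HYH, a factor of light responses, was lower at -1.73 ± 0.26. Of 23 flowering genes 13 were higher and 5 lower in ada2a, with a median log2 difference of 0.75. FT, the mobile floral promoter, was at 113, 73.6 and 71.2 in ada2a and 11.2, 15.9 and 8.78 in gcn5 (log2 difference 2.75 ± 0.28, adjusted p = 2.3e-09). TEM1, a repressor of FT, was also higher, at 8815, 9421 and 8449 in ada2a and 3049, 3137 and 2186 in gcn5 (log2 difference 1.69 ± 0.09, adjusted p = 5.1e-15), with Col-0 at 1084 ± 102. TOE2, a further repressor of flowering, was lower at -0.69 ± 0.07.

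Defence chemistry and surface genes were mixed, beside 28.6% higher and 23.4% lower over all genes. Of 37 glucosinolate and camalexin genes 12 were higher and 17 lower in ada2a, with a median log2 difference of -0.18. The myrosinase gene TGG1, singled out after its value was seen, was at 148735, 128922 and 161161 in ada2a and 53421, 51925 and 46949 in gcn5 (log2 difference 1.52 ± 0.10, adjusted p = 4.9e-13), TGG2 at 48500.2, 50873 and 51374 in ada2a and 9008, 9078 and 8434 in gcn5 (log2 difference 2.51 ± 0.10, adjusted p = 9.2e-18), and FMO GS-OX2, an oxygenase of aliphatic glucosinolates, at 871, 845 and 776 in ada2a and 74.7, 52.4 and 76 in gcn5 (log2 difference 3.62 ± 0.14, adjusted p = 3.9e-18). PEN2, a myrosinase of pathogen defence, had a log2 difference of 1.08 ± 0.07. CYP83B1, of the core synthesis of indole glucosinolates, was lower in ada2a, at 3971, 3846 and 3919 in ada2a and 10623, 10542 and 8392 in gcn5 (log2 difference -1.32 ± 0.10, adjusted p = 3.2e-12). Of 57 wax and cutin genes 22 were higher and 14 lower in ada2a, with a median log2 difference of 0.05 (13 higher and 28 lower with values divided by column totals), with the fatty acid elongase gene KCS8 at 13668, 13858 and 14238 in ada2a and 2439.7, 2513 and 2596 in gcn5 (log2 difference 2.47 ± 0.14, adjusted p = 4.2e-15). Of 20 flavonoid genes 3 were higher and 6 lower in ada2a, with a median log2 difference of 0.04 (3 higher and 8 lower with values divided by column totals). Chalcone synthase CHS, the entry enzyme, was at 1166, 1046 and 1298 in ada2a and 3378, 3678 and 2999 in gcn5 (log2 difference -1.52 ± 0.16, adjusted p = 2.2e-09), and MYBL2, a repressor of anthocyanin synthesis, was higher, at 2835, 2918 and 2659 in ada2a and 711, 871 and 675 in gcn5 (log2 difference 1.90 ± 0.13, adjusted p = 3.4e-13). Of 52 heat shock genes 14 were higher and 23 lower in ada2a, with a median log2 difference of -0.14. At least 2-fold differences were found in 8 higher and 1 lower. HSFB2A was at 806, 785 and 857 in ada2a and 149, 183 and 169 in gcn5 (log2 difference 2.28 ± 0.16, adjusted p = 1.2e-12), and Hsp70b, lower in ada2a, at 182, 225 and 180.5 in ada2a and 398, 444 and 447 in gcn5 (log2 difference -1.14 ± 0.19, adjusted p = 9.9e-06). Of 14 mitochondrial stress genes 6 were higher and 6 lower in ada2a, with a median log2 difference of -0.03, with the dehydrogenase gene NDA1 at 3.22 ± 0.27 and the carrier gene DIC2 at 3.43 ± 0.30 on the log2 scale.

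Genes of cell division were more often lower than higher in ada2a, beside 28.6% higher and 23.4% lower over all genes. Of 58 cell cycle genes 8 were higher and 20 lower in ada2a, with a median log2 difference of -0.16. The mitotic cyclin gene CYCB1;5 was lower in ada2a, at 88.9, 64.7 and 63 in ada2a and 306, 210.0 and 265 in gcn5 (log2 difference -1.84 ± 0.24, adjusted p = 1.6e-07), and the D-type cyclin gene CYCD1;1 higher, at 1266, 1155 and 1221 in ada2a and 513, 538 and 626 in gcn5 (log2 difference 1.12 ± 0.11, adjusted p = 7.8e-10). Of 52 leaf growth genes 17 were higher and 9 lower in ada2a, with a median log2 difference of 0.15 (12 higher and 17 lower with values divided by column totals), with TCP10 at 1.36 ± 0.11 on the log2 scale. Of 15 stomatal genes 9 were higher and 1 lower in ada2a, with a median log2 difference of 0.48 (4 higher and 2 lower with values divided by column totals). FAMA, which completes guard cell differentiation, was at 919, 943 and 1084 in ada2a and 493, 485 and 425 in gcn5 (log2 difference 1.07 ± 0.10, adjusted p = 5.0e-10), and the receptor gene TMM, which limits stomatal number, lower, at 479, 514 and 465 in ada2a and 709, 667 and 782 in gcn5 (log2 difference -0.56 ± 0.11, adjusted p = 7.7e-05).

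Genes of GCN5 complexes and of histone acetylation and deacetylation were more often lower than higher in ada2a, beside 28.6% higher and 23.4% lower over all genes. Of 18 subunits of GCN5 complexes 3 were higher and 7 lower in ada2a, with a median log2 difference of -0.16, ADA2A and GCN5 included. The deubiquitinase gene UBP22 of SAGA was at 621, 605 and 606 in ada2a and 856, 817 and 875 in gcn5 (log2 difference -0.47 ± 0.10, adjusted p = 2.7e-04), with Col-0 at 861 ± 48. TAF6B, related to a SAGA and TFIID subunit, had a log2 difference of -0.29 ± 0.08. Of 26 histone acetyltransferases and deacetylases 4 were higher and 11 lower in ada2a, with a median log2 difference of -0.11. The plant-specific deacetylase genes HD2B (3990.0, 4759 and 4375 in ada2a and 6830.1, 6565 and 6798 in gcn5, log2 difference -0.63 ± 0.07, adjusted p = 1.1e-08) and HD2A (932, 1239.9 and 1045 in ada2a and 1721, 1692 and 1601 in gcn5, log2 difference -0.65 ± 0.10, adjusted p = 4.1e-06) were lower, as was HDA19 at -0.27 ± 0.05. Of 22 histone genes 5 were higher and 6 lower in ada2a, with a median log2 difference of -0.06 (1 higher and 12 lower with values divided by column totals). As deposited, these shares too were near those over all genes. The drought-induced linker histone gene HIS1-3 was higher (log2 difference 0.73 ± 0.15, adjusted p = 1.2e-04) and H2AXA, a variant of DNA repair, lower (log2 difference -0.52 ± 0.07, adjusted p = 3.5e-07).

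The gene next to ADA2A was lower in ada2a as well. AT3G07750 (chromosome 3, 2473194 to 2475575, plus strand), singled out after its value was seen, starts 99 bases from the start of ADA2A on the opposite strand. It was at 139, 196 and 129 in ada2a and 419, 380.0 and 390.3 in gcn5 (log2 difference -1.37 ± 0.16, adjusted p = 2.8e-08), in Col-0 at 289 ± 74.6 and in the double mutant ada2aspc at 203 ± 22.5. Its ada2a libraries lay below all gcn5 libraries. The annotated genes leave 98 bases between them, shown here with a DRE core and a W-box, both matched on the minus strand, in capitals:
ADA2A to AT3G07750 (chr3:2473096-2473193, plus strand, TAIR10.1): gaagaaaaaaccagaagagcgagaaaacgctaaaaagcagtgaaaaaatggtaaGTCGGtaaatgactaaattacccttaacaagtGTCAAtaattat
On its other side AT3G07730, whose annotated end overlaps ADA2A, was at 151, 164 and 143 in ada2a and 236, 208 and 215 in gcn5 (log2 difference -0.52 ± 0.17, adjusted p = 0.0107), and reads of overlapping genes may be shared. AT3G07760, the next gene beyond AT3G07750, did not pass (adjusted p = 0.529). Further out, OBE1 and AT3G07790 were higher in ada2a than in gcn5 (log2 differences 0.84 and 0.54) and than in Col-0 (0.86 and 0.60). Of the 15 tested genes within 30 kb, ADA2A included, 3 were higher and 6 lower, where 52.0% of all genes passed. What ties these values to the mutation was not tested.

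**Figure D4:**
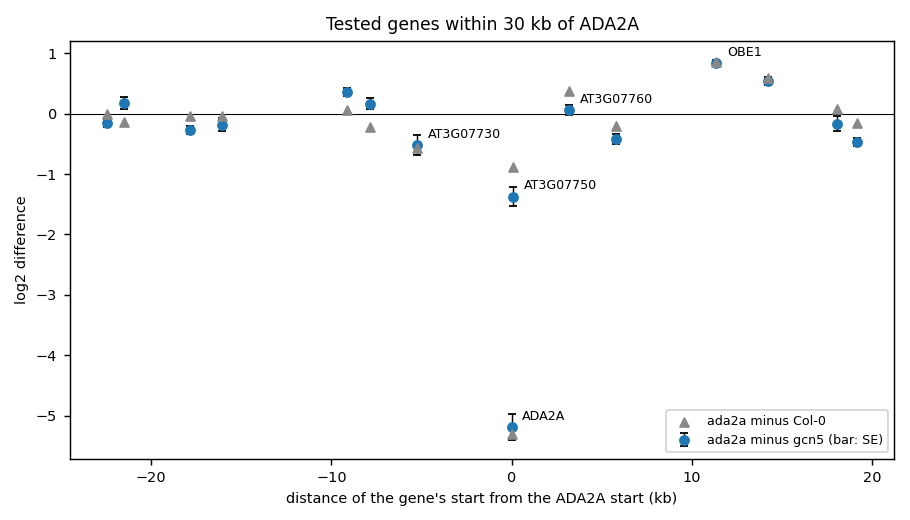
Log2 difference of the 15 tested genes with a start within 30 kb of the ADA2A start (horizontal axis, kb along chromosome 3). Blue circles are ada2a minus gcn5 with SE, and grey triangles ada2a minus Col-0. ADA2A lies at -5.19 and its neighbour AT3G07750 at -1.37.

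Several genes without a symbol in the reference were near 0 in gcn5 and abundant in ada2a. They were singled out after their values were seen. AT1G31690, a copper amine oxidase gene, was at 2448, 2334 and 1963 in ada2a and 7.44, 14.3 and 1.22 in gcn5, with Col-0 at 1692 ± 36.7 and ada2b at 1.87 ± 3.23. AT4G33720, of the family of PR1, was at 481, 641 and 686 in ada2a and 0, 1.54 and 0 in gcn5, with Col-0 at 66.4 ± 25.4. AT1G33760, with an AP2-type DNA-binding domain, was at 407, 479 and 573 in ada2a and 0, 0 and 1.75 in gcn5, and at 1.34 in Col-0. The first gene was thus also abundant in the wild type and the last was not. AT1G07550, a leucine-rich repeat kinase gene, was at 77.8, 81.6 and 52.7 in ada2a and listed at 0 in all gcn5 libraries, with Col-0 at 85.9 ± 14.4 and ada2b at 0.536. AT1G64795, a short uncharacterised gene, was at 215, 247 and 198 in ada2a and listed at 0 in all gcn5 and all eaf6 libraries, with sdrl at 4.26 and Col-0 at 182 ± 26.5. In ada2b this gene was at 107 ± 17.1, unlike gcn5. Dirigent-like DIR5 had the reverse order, listed at 0 in all ada2a libraries and at 39.2, 37.8 and 30.9 in gcn5. Its Col-0 mean was 0.695, so here ada2a rather than gcn5 lay near the wild type. No fold is given for groups listed at 0.

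The genes with large differences more often had a single exon and were less abundant in Col-0 than tested genes in general. A single exon was annotated for 28.1% of the 2213 higher genes and 27.1% of the 992 lower genes, and for 17.8% of all tested genes. The median level in Col-0 was 208 for higher genes, 78.2 for lower genes and 543 for all. They were spread over the genome, with 28.6% of higher and 27.9% of lower genes on chromosome 1 (26.5% of all). Over 106 windows of 1 Mb with at least 50 tested genes, 3.7% to 16.2% of genes were higher and 1.63% to 9.21% lower. Of 83 tested small nucleolar RNA genes 14 were at least 2-fold lower and 2 at least 2-fold higher in ada2a. Over all tested genes 4.54% were at least 2-fold lower and 10.1% at least 2-fold higher.

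The contrast of ada2b with gcn5 uses the same gcn5 libraries and is given beside the pair. It called 9214 genes (42.1%), 4278 higher (19.6%) and 4936 lower (22.6%) in ada2b, with 498 at least 2-fold higher (2.28%) and 1591 lower (7.28%), against 2213 and 992 for ada2a. Light reaction genes were lower in ada2b than in gcn5 in 45 of 57 cases and higher in 0 (median -0.45), against 55 higher in ada2a. Stomatal genes were lower in ada2b in 13 of 15 cases and higher in 0, and higher in ada2a in 9. Root hair genes were lower in ada2b in 2 of 21 cases and in ada2a in 14. LHCB2.1 was at 3830.0 ± 386 in ada2b, below gcn5 (log2 difference -1.87 ± 0.11, adjusted p = 8.6e-14). The level of EXPA7 in ada2b was 1339 ± 191, for which the contrast with gcn5 did not pass (log2 difference 0.06 ± 0.19, adjusted p = 0.813). DIN2 was at 1214 ± 6.02 in ada2b, against 501 ± 73.6 in gcn5 (log2 difference 1.28 ± 0.53, adjusted p = 0.05).

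The contrast of ada2a with the mean of spc, ing1 and sdrl leaves out eaf6, for which no contrast with ada2a was run. In this contrast, which shares the ada2a libraries with the main one, 515 genes passed (2.36%), 219 higher (1.0%) and 296 lower (1.35%), of which 33 at least 2-fold higher (0.151% of all genes) and 16 lower (0.0732%). Without ada2a library 1 there were 227 and without library 2 there were 209, and the 16 became 6 without library 2 and 36 without library 3. TCH4 was at 31561 ± 2264 in spc, 24143 ± 3398 in ing1 and 40189 ± 3043 in sdrl, and the contrast with ada2a did not pass (log2 difference -0.19 ± 0.21, adjusted p = 0.777). PORA, with means of 1205, 1365 and 1538, did not pass either (log2 difference 0.24 ± 0.19, adjusted p = 0.657). Of 57 light reaction genes 3 passed as higher in ada2a and 0 as lower, of 21 root hair genes 0 passed, and of 30 xyloglucan endotransglucosylase genes 0 were higher and 9 lower.

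Among the genes that did pass were ADA2A (log2 difference -5.34 ± 0.17, adjusted p = 1.6e-19) and its neighbour AT3G07750 (log2 difference -1.13 ± 0.13, adjusted p = 6.3e-06), which was at 338 ± 41.8 in spc, 337 ± 46 in ing1 and 329 ± 2.83 in sdrl. A few further genes that passed were singled out after their values were seen. ACS6 was at 4285 ± 314 in ada2a and 4358 ± 185 in spc, but at 1121 ± 148 in ing1 and 936 ± 86.9 in sdrl (log2 difference from the mean of the 3 mutants 1.37 ± 0.16, adjusted p = 7.7e-06). WRKY40 had means of 2671 in ada2a, 2428 in spc, 668 in ing1 and 695 in sdrl (log2 difference 1.36 ± 0.21, adjusted p = 1.5e-04). The F-box gene FBS1, WRKY46, the calmodulin-like gene CML37 and CBF1 also passed, with log2 differences of 1.58 ± 0.19, 1.61 ± 0.31, 2.02 ± 0.42 and 1.84 ± 0.26. For ACS6 and WRKY40 spc thus lay with ada2a, and ing1 and sdrl lay lower. XTH15 went the other way, at 486 ± 154 in ada2a, 662 ± 181 in spc, 1084 ± 51.7 in ing1 and 2602 ± 22.2 in sdrl (log2 difference -1.37 ± 0.13, adjusted p = 2.3e-07).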

How the data were processed

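RNA of 30 libraries of 12-day-old seedlings was analysed, 3 for each of 10 genotypes grouped by their labels. The authors deposited a normalised signal per gene, which is not read counts, so depth per library is unknown. Not given in the sources used here are the normalisation step, the read counter and its use of strand. The build TAIR10 and the tools HISAT2, edgeR and bcl2fastq are listed, per the submitters' processing notes. A count test had been named for the case of counts. As the values are a signal, limma 3.58.1 (R 4.3.3) was fitted on log2(value + 1) instead, with a term per genotype over all 30 libraries, a variance trend, Benjamini-Hochberg adjustment at 0.05 and a minimum value of 10 in at least 3 libraries. Values below 1e-06 were set to 0. The pseudocount of 1 understates the change of low genes. No pair of columns was identical. The fit was tested on simulated data.

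Symbols, coordinates and upstream sequences came from RefSeq TAIR10.1, which holds all 32548 loci, 10804 of them with a symbol. All 43 gene lists, the genes named and the members compared were chosen with earlier results of these data known, so they are no independent evidence. Named genes were the 12 largest differences in each direction that met the conditions in the text, the mutated genes, and from each list as many as 4 members of smallest adjusted p (the largest in the other direction included) and up to 2 that did not pass. Alternatives were 2 other scalings, a pseudocount of 16, no filter, a fit of only the 6 libraries, the replicate number as a block and leaving out each library. Plots used matplotlib 3.10.9 in Python 3.11.15.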

Additional observations from a re-analysis of the deposited data

How the results depend on the processing

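Dividing by column totals, with a median of -0.28 over all genes, moved the calls of ada2a against gcn5 from 6255 higher and 5119 lower to 4016 and 10052, and the 2-fold lower count from 992 to 1864. Under it ADA2B (-0.22) and AT3G07760 (-0.21) passed with the opposite sign. Leaving out each ada2a or gcn5 library gave 10238 to 10567 called genes (5742 to 5966 higher, 4380 to 4601 lower; 2107 to 2202 and 865 to 1099 at least 2-fold). For ada2b against gcn5 the range was 7975 to 8512 (3596 to 3864 higher, 4308 to 4648 lower; 444 to 510.0 and 1464 to 1651 at least 2-fold), and for ada2a against spc, ing1 and sdrl 209 to 554 (71 to 241 higher, 138 to 330.0 lower; 21 to 37 and 6 to 36 at least 2-fold). For both of these, leaving out libraries was added after seeing the data.

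Between ada2a and gcn5, libraries with the same replicate number did not deviate together (r = -0.0219, -0.0173 and -0.0849). The other genotypes were not checked in this way. With the replicate number as a block 11312 genes were called, and 9128 and 511 in the other contrasts. Of 282 named genes tested under 12 alternatives, 228 kept their direction and their side of the threshold in all. DESeq2 was not run, since the values are not counts. Depth is unknown, so low values carry an unstated counting error.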
